A study of Mus musculus with 8 samples.

Results

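The H3K36me3 peaks over 10 genes for proteins that build or process the extracellular matrix are described: the glycoprotein genes Fn1, Thbs1, Thbs2 and Fbn1, the collagen processing genes P4hb, Serpinh1, Bmp1 and Lox, and also the protease inhibitor gene Timp2 and the serpin family gene Serpinf1. They are 10 of the 21887 protein-coding genes of the mouse annotation used, and they were chosen by their H3K36me3 peak coverage in these libraries, including its absence in several of them against one of the 2 controls. Their values are therefore a description and were not tested. Chromatin immunoprecipitation followed by sequencing (ChIP-seq) located trimethylated lysine 36 of histone H3 (H3K36me3) in cultured bone marrow stromal cells, the adherent marrow cells that include progenitors of bone, fat and cartilage. All cells came from C57BL/6J mice whose Setd2 alleles were both floxed (Setd2 fl/fl), were at passage 2, and carried a lentivirus and 4 days of puromycin at 2 µg/ml. The WT group received the GFP virus and keeps Setd2, whereas the KO group received the Cre recombinase virus. Each genotype had 2 H3K36me3 libraries, 1 Input library (chromatin without antibody) and 1 IgG library (a non-specific antibody), and the age of the mice and the number of animals are not stated in the labels. The labels do not say whether the libraries within a genotype are separate cultures. A p-value here thus reflects the spread among these 4 samples alone, and that spread may be technical. Cells that kept Setd2 after Cre were not counted, and fewer cells with the mark and less mark per cell cannot be told apart.

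H3K36me3 is placed by Setd2, which travels with elongating RNA polymerase II, so the mark lies over the bodies of transcribed genes, is usually low at the start site and grows toward the end of the gene. Stromal cells are a main source of matrix. They fold and hydroxylate collagen chains in the endoplasmic reticulum, trim and cross-link them outside the cell, and lay them down with fibronectin, fibrillin and thrombospondins. The measure used below is coverage, the percent of a gene's annotated span that lies under the authors' H3K36me3 peaks, given per library and as mean ± SD (n = 2). Each H3K36me3 library has 2 peak lists, 1 called against the Input and 1 against the IgG library of its genotype.

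The 4 lists against Input held 122589 to 246258 peaks, and, as peak lists carry no read counts, their depth is unknown. The targeted gene, Setd2, had a coverage of 66.4% and 60.5% in WT, and in the KO libraries 0.690% and 1.70%, which shows the mark over the gene and not its deletion. Over all 21887 protein-coding genes, 5612 were at 0 in both WT libraries, and the mean coverage was 25.9% in WT and 3.32% in KO. Of 15 stromal markers, 14 had peaks in WT, with Thy1 at 0, and the list's mean coverage was 39.5% in WT, beside 2.26% in KO. Some of the 14 had little: Nt5e and Alcam were under 10% in both WT libraries. Lepr had 3.33% and 0.812% in WT, below its 4.02% and 3.66% in KO. Of 15 haematopoietic markers, 7 had peaks in WT, 8 (among them the erythroid gene Gata1 and the granulocyte genes Mpo and Elane) were at 0 in both WT libraries, and the list's mean was 16.8% in WT, beside 2.88% in KO. The myeloid genes Lyz2 and Csf1r were covered, Lyz2 at 74.9% and 87.6% and Csf1r at 45.1% and 43.5%. The 10 endothelial markers averaged 5.46% in WT and 5.23% in KO, with Tie1 at 0 in both WT libraries. The most covered of them in WT, Egfl7, had 20.8% and 19.7% in WT beside 3.93% and 2.57% in KO. The part of myeloid cells in the values below was not tested.

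Against Input, all 10 genes had less coverage in KO than in WT. The order of the genotype means turned in Fn1 and Thbs1 once libraries were scaled to their mean coverage, and in Fn1, Lox, Serpinh1 and Serpinf1 against IgG. The median coverage of the 10 genes was 70.5% and 68.0% in the WT libraries and 1.63% and 3.53% in the KO libraries, beside 51.7%, 49.8%, 1.61% and 2.55% for the 10809 genes whose coverage averaged 10% or more over the 4 libraries, the genes tested. Both KO libraries lay below both WT libraries in 10 of the 10 genes, and the same held for 94.8% of those 10809 genes. The 10 genes held 226 and 213 peaks in WT and 23 and 38 in KO. Their peaks averaged 1226 bp and 1237 bp in WT and 587 bp and 644 bp in KO. In WT 28 and 31 of them were wider than 2 kb, and in KO none was, the widest spanning 791 bp and 1108 bp. Narrower KO peaks were not particular to these genes. Over the whole lists against Input the mean width was 1000 bp and 956 bp in WT and 585 bp and 592 bp in KO. Of the WT peaks in these genes, 86.3% and 88.7% met a peak of the other WT library by at least 1 bp, whereas 6 of 23 and 6 of 38 KO peaks met one of the other KO library. The same shares over all peaks of the lists are not given here, so these are not read as particular to the 10 genes.

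**Figure D1:**
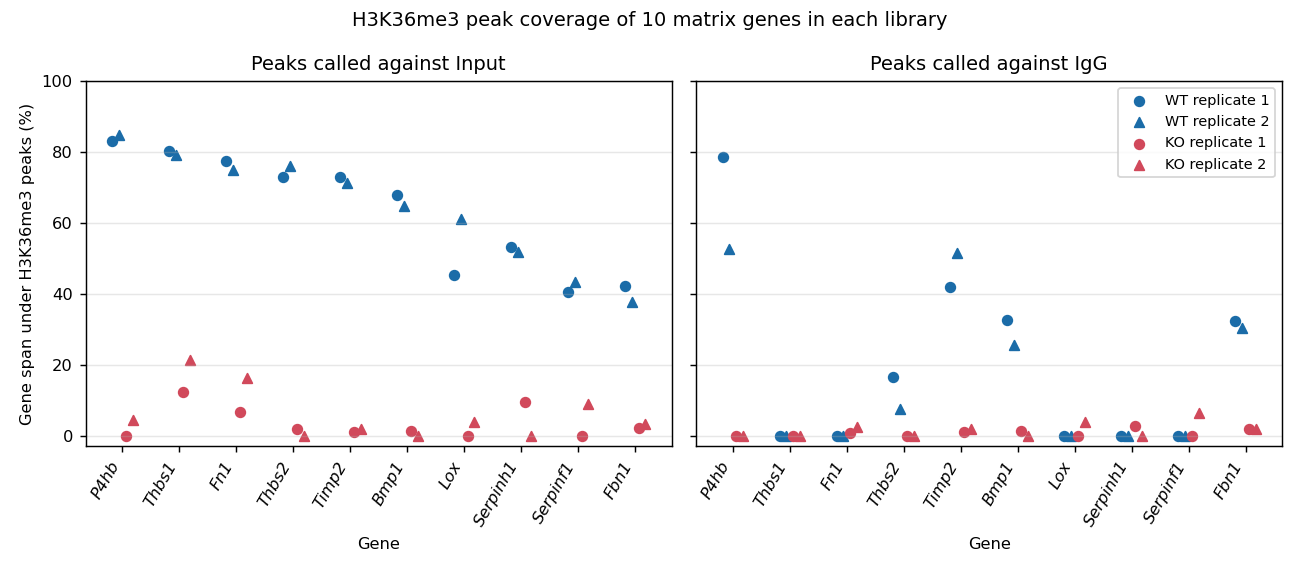
Percent of each gene's span under H3K36me3 peaks called against Input (left) and against IgG (right), with 1 point per library (blue WT, red KO; circles replicate 1, triangles replicate 2). Against Input every WT point lies above both KO points of the same gene, and against IgG the WT points of Fn1, Thbs1, Lox, Serpinh1 and Serpinf1 lie at 0%.

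Fn1 encodes fibronectin, the adhesive glycoprotein that links collagen and other matrix proteins to integrins, and lies on chromosome 1 from 71585473 to 71653280 (GRCm38). Against Input its coverage was 77.4% and 74.9% in WT, under 32 and 38 peaks of up to 5134 bp and 3886 bp. In KO it was 6.63% and 16.3%, under 8 and 16 peaks of at most 624 bp and 1108 bp. The WT values lay close together at 76.2% ± 1.79, and the KO mean of 11.5% ± 6.83 was above that of 93.3% of the genes tested. Of the KO peaks in Fn1, 4 of the 8 in replicate 1 met 4 of the 16 in replicate 2, more meetings than in any other of the 10 genes. Against IgG both WT libraries had 0 peaks in Fn1, whereas KO replicate 1 had 1 peak (0.873%) and KO replicate 2 had 3 (2.58%). The strongest WT peaks of the gene against Input had authors' scores of 396 and 292, higher than 98.3% and 97.4% of the peaks in their lists. Each is the highest of 32 or 38 peaks set against single peaks, so this rank does not show that Fn1 peaks were unusually strong.

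The stretch without IgG-called peaks in WT began close to one edge of Fn1. On the side of the lower coordinate the nearest such peak ended 4.34 kb and 4.48 kb from the gene, and the adjoining 10 kb was covered at 41.8% and 30.2% against IgG, beside 67.0% and 50.6% against Input. On the other side the next peak lay 60.9 kb and 8.38 kb away. Atic, a gene of purine synthesis 6069 bp from Fn1 on the lower side, had 76.1% and 73.0% against Input and still 76.1% and 54.3% against IgG in WT. Its coverage against Input fell to 6.54% and 8.61% in KO (limma adjusted p 0.000211), and it is named because of these values.

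**Figure D2:**
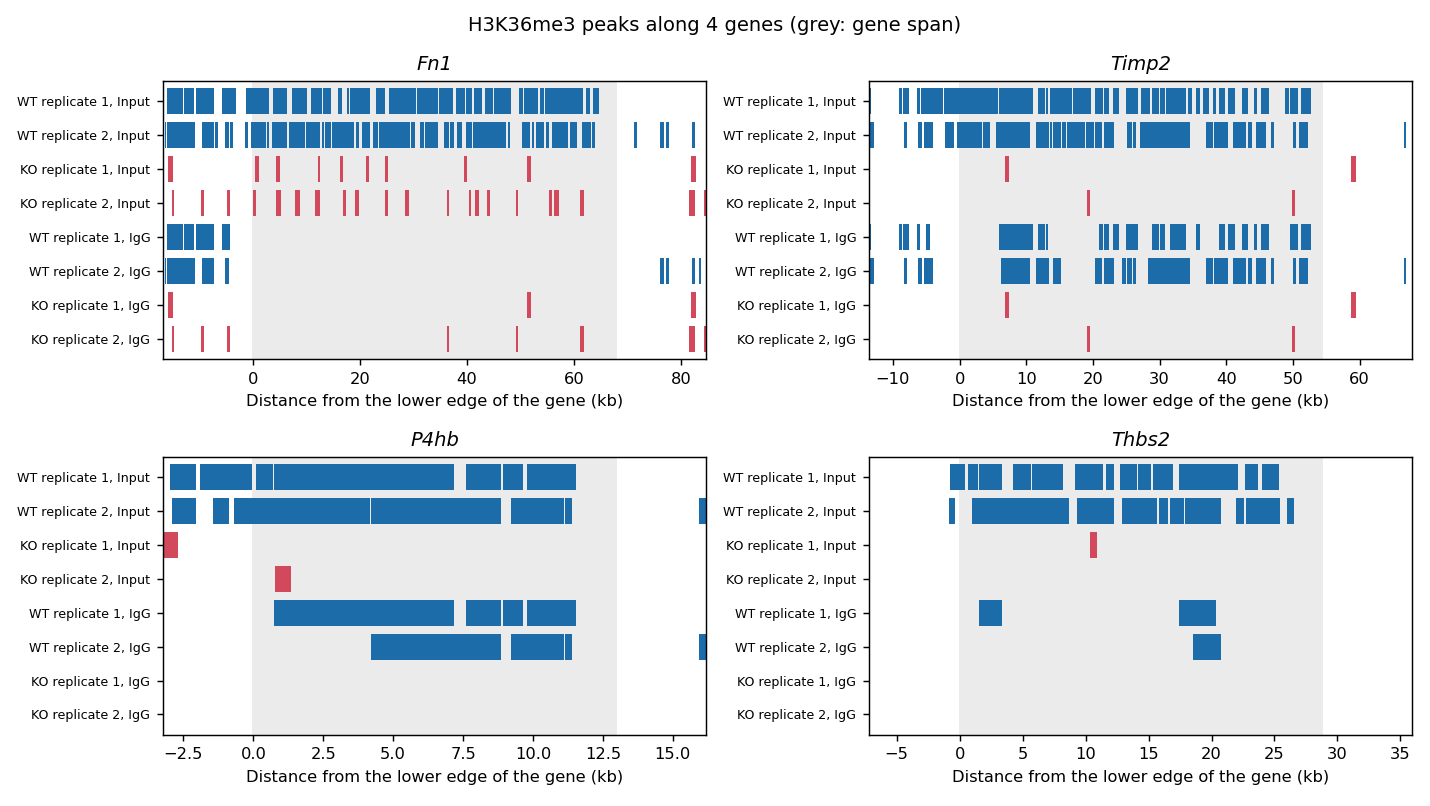
H3K36me3 peaks (bars; blue WT, red KO) in the 8 lists along Fn1, Timp2, P4hb and Thbs2, with the distance in kb from the lower edge of the gene on the horizontal axis and the gene span in grey. In Fn1 the WT peaks against IgG stop before the gene while those against Input run through it, and in Timp2 and P4hb (replicate 2) the part at the lower edge, which is the end of these genes, holds WT peaks against Input only.

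Thrombospondins are secreted glycoproteins that bind matrix proteins, proteases and cell surface receptors. Thbs1, on chromosome 2 from 118111876 to 118127133, had a coverage of 80.3% and 79.1% in WT against Input, under 7 and 10 peaks, and 12.2% and 21.3% in KO, under 3 and 5 peaks. Its KO mean, 16.8% ± 6.44, was the highest of the 10 genes and above that of 95.5% of the genes tested. Against IgG none of the 4 libraries had a peak in Thbs1. Thbs2, on chromosome 17 from 14665500 to 14694262, had 72.9% and 76.1% in WT, under 16 and 15 peaks, and 1.87% and 0% in KO, where replicate 1 had a single peak of 538 bp. Against IgG 2 and 1 peaks were left in WT, with a coverage of 16.7% and 7.57%, and none in KO. Thbs1 lay above Thbs2 in both genotypes against Input, with its lower library above the higher library of Thbs2, whereas against IgG Thbs2 was the one with WT peaks.

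Fbn1 encodes fibrillin, the main protein of the microfibrils that carry elastin and hold latent TGF-beta in the matrix. At 205.9 kb (chromosome 2, 125300594 to 125506485) it is the longest of the 10 genes and had the lowest mean coverage in WT, 40.0% ± 3.09, from 42.2% and 37.8%. It held 95 and 82 WT peaks of 917 bp and 951 bp on average. In KO it had 7 and 11 peaks and a coverage of 2.06% and 3.30%. The WT peaks gathered away from the start site: the 50% of the span nearest the start was covered at 23.1% and 20.5%, and the 50% nearest the end at 61.2% and 55.1%. With the other control Fbn1 had a WT coverage of 32.4% and 30.4% against IgG, and both values lay above the KO values of 1.78% and 1.86%.

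P4hb and Serpinh1 act on collagen in the endoplasmic reticulum. P4hb, a protein disulfide isomerase, is the beta subunit of the prolyl 4-hydroxylase that hydroxylates collagen chains and lies on chromosome 11 from 120560298 to 120573253. It was the most covered of the 10 genes, with 83.1% and 84.7% in WT, a level above 97.1% of the genes tested. That coverage came from 5 and 4 peaks, the widest of 6446 bp and 4850 bp. In KO it had 0% and 4.43%, the latter from 1 peak of 574 bp. Against IgG the WT libraries differed, with 78.6% in replicate 1 and 52.6% in replicate 2, and KO had none. The difference lay near the end of the gene: the 50% of the span nearest the end had 97.7% and 99.5% against Input but 88.8% and 35.2% against IgG, while the 50% nearest the start had 68.4% and 69.9% with either control. The peak that replicate 2 lacked against IgG was its highest-scoring peak in P4hb against Input, with an authors' score of 587.

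Serpinh1 encodes the collagen chaperone HSP47, and with 7.87 kb (chromosome 7, 99345375 to 99353239) it is the shortest of the 10 genes. Its coverage in WT was 53.3% and 51.7%, under 4 and 3 peaks, and in KO 9.55% and 0%, under 2 peaks and none. WT coverage was higher toward the end, with 86.1% and 87.7% in the 50% of the span nearest the end and 20.5% and 15.7% in the 50% nearest the start. Of the 2 KO peaks of replicate 1, the one in mid gene lay within a stretch that both WT libraries covered. The other spanned the start site, chr7:99353027-99353608, a place without a WT peak with either control. Only the peak at the start site was also called against IgG, where WT had 0% in both libraries and KO 2.71% and 0%.

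Start sites and strand could be read from RefSeq promoter sequences (GRCm38.p6) for 6 of the 10 genes, Thbs2, Fbn1, P4hb, Serpinh1, Timp2 and Serpinf1, and all 6 lie on the minus strand. The 250 bases before the start were free of WT peaks in all 6 genes with both controls, and 1 of the 6 held a KO peak, Serpinh1 in replicate 1, whose window was covered over 100%. Over all 32851 promoter windows of the table, a WT peak against Input touched 4.73% and 4.56% and a KO peak 2.63% and 3.08%. The windows of 3 genes are shown because they span what these genes have at the start: Serpinh1 is the one with a peak, P4hb has the most CG dinucleotides and Serpinf1 the fewest. Capitals mark each CG, which reads the same on both strands. The windows are chr7:99353240-99353489 for Serpinh1, chr11:120573254-120573503 for P4hb and chr11:75422624-75422873 for Serpinf1, each on the minus strand and written 5′ to 3′ up to the base before the start.
Serpinh1: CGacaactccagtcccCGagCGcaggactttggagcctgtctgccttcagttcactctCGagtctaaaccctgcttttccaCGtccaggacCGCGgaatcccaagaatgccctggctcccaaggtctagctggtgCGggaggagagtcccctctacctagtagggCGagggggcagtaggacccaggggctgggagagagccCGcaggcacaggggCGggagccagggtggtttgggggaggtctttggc
P4hb: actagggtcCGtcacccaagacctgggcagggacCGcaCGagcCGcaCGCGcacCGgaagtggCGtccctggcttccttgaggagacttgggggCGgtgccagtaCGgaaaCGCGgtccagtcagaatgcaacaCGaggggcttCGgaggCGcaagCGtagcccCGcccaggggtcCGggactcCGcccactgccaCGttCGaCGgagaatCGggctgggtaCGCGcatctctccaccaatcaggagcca
Serpinf1: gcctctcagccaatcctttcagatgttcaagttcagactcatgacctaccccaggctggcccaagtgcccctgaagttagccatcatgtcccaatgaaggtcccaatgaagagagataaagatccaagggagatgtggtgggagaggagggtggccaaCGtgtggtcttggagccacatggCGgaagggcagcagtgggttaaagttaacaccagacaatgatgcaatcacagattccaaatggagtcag
These windows held 11, 25 and 2 CGs. The other windows held 21 in Timp2, 13 in Fbn1 and 3 in Thbs2, beside a median of 6 over all windows, of which 92.1% held at least 1. P4hb and Timp2, with CG-rich windows, had against IgG 78.2% and 64.6% of their WT coverage against Input, and Serpinf1 and Thbs2, with CG-poor windows, 0% and 16.3%. Serpinh1, with 11 CGs, also had 0%, and with 6 genes no relation was drawn from this.

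Distance from the start site to the first WT peak inside the gene, against Input, was shortest in P4hb, at 1406 bp and 1568 bp, and longest in Serpinf1, at 4303 bp and 4589 bp. It was 1580 bp and 2060 bp in Timp2, 3428 bp and 2213 bp in Thbs2 and 2861 bp and 2924 bp in Fbn1. In Serpinh1 the libraries differed, at 3000 bp and 1713 bp. In each of these 6 genes the 50% of the span nearest the end was more covered than that nearest the start, in both WT libraries. The same order was found in 7194 of the 8813 tested genes of known strand (81.6%). Against IgG the order was turned in both WT libraries of Thbs2 and Timp2 and in replicate 2 of P4hb, and it was kept in Fbn1.

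**Figure D3:**
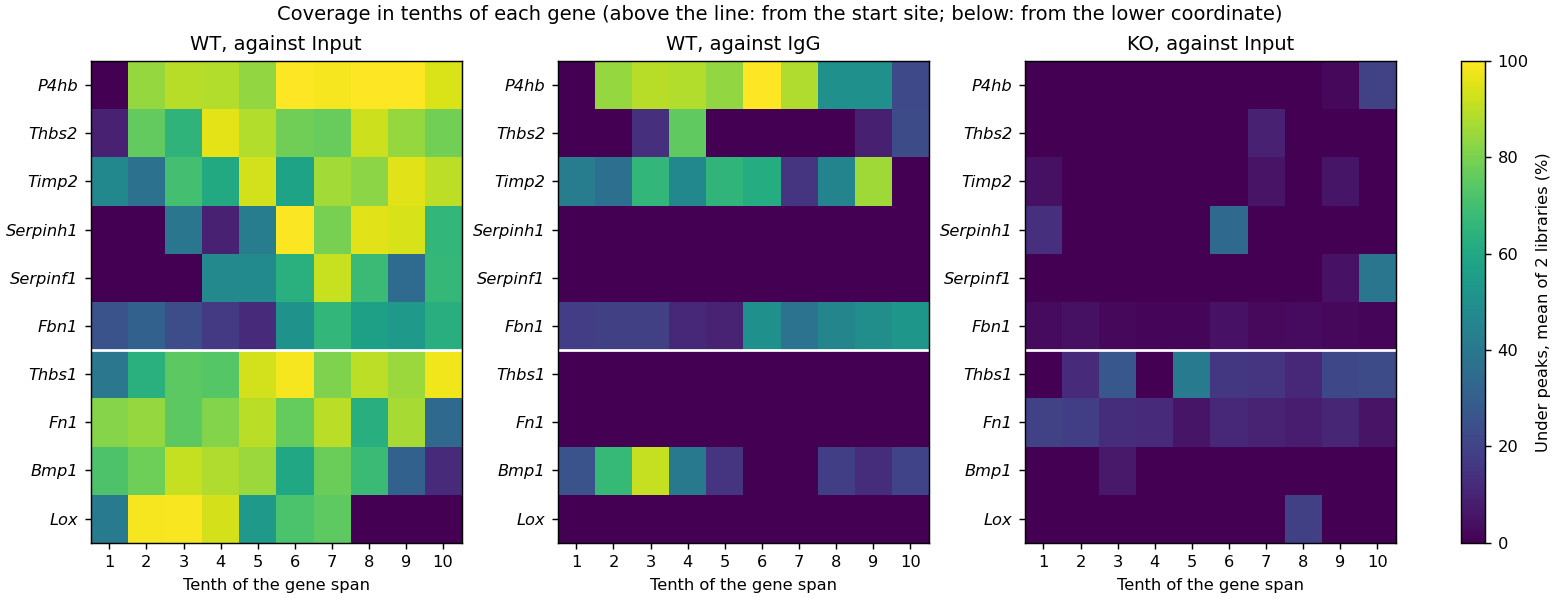
Percent under peaks (colour, mean of 2 libraries) in 10 equal parts of the gene span for WT against Input, WT against IgG and KO against Input. Above the white line the parts run from the start site (1) to the end (10), below it from the lower to the higher coordinate, and WT coverage against Input is 0% in the first part of P4hb, Serpinh1 and Serpinf1.

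Bmp1 and Lox act on collagen outside the cell. Bmp1, the procollagen C-proteinase that removes the carboxyl propeptide (chromosome 14, 70474555 to 70520716), had a coverage of 68.0% and 64.7% in WT, under 25 and 20 peaks. In KO it had 1.38% and 0%, from 1 peak and none. Against IgG the WT libraries had 10 and 8 peaks, with 32.8% and 25.5%, of which 10 and 7 had a counterpart against Input, and the KO values were again 1.38% and 0%. The IgG-called peaks lay mostly on the side of the lower coordinate, where the 50% of the span was covered at 50.5% and 45.4% against IgG, beside 15.0% and 5.58% on the other side. Lox, the lysyl oxidase that starts the cross-links of collagen and elastin (chromosome 18, 52516060 to 52529867), was the gene in which the WT libraries differed most, with 45.4% and 61.2%. Replicate 1 had 7 peaks of 896 bp on average and replicate 2 had 4 of 2326 bp, and 68.7% of the bases covered in either were covered in both. In KO it had 0% and 3.76%, and this KO peak of 519 bp lay where neither WT library had one. Against IgG both WT libraries had 0% and that same KO peak remained. The KO mean of Lox was then above the WT mean through this peak alone, with KO replicate 1 at 0% like both WT libraries.

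Timp2 encodes a secreted protease inhibitor and Serpinf1 a secreted member of the serpin family. Timp2, which blocks matrix metalloproteinases and helps to activate one of them (chromosome 11, 118301061 to 118355411), had 73.0% and 71.2% in WT, under 29 peaks in each library, and 1.13% and 1.99% in KO, under 1 and 2 peaks. Against IgG the WT libraries had 18 and 22 peaks, with 41.8% and 51.4%, of which 18 and 21 had a counterpart against Input, and the KO values were the same as against Input. The last 10% of the gene, covered at 98.5% and 81.8% in WT against Input, had 0% in both libraries against IgG. Cep295nl lies wholly within the span of Timp2, so its bases are counted for both genes. Serpinf1 encodes PEDF, which belongs to the serpins without inhibiting proteases, restrains vessel growth and is known for its part in bone mineralization (chromosome 11, 75410029 to 75422623). Its coverage was 40.5% and 43.5% in WT, under 6 and 8 peaks, and 0% and 8.81% in KO. The 2 KO peaks of replicate 2 lay at the end of the gene. Against IgG WT had 0% in both libraries and KO 0% and 6.50%, although 23.3% and 23.4% of the adjoining 10 kb beyond the gene's end was covered in WT. The nearest of these WT peaks lay 0.892 kb and 0.958 kb from the gene.

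Ordered by mean WT coverage against Input, the 10 genes ran from P4hb (83.9% ± 1.16) through Thbs1 (79.7% ± 0.857), Fn1 (76.2% ± 1.79), Thbs2 (74.5% ± 2.23), Timp2 (72.1% ± 1.24), Bmp1 (66.3% ± 2.31), Lox (53.3% ± 11.2), Serpinh1 (52.5% ± 1.15) and Serpinf1 (42.0% ± 2.07) to Fbn1 (40.0% ± 3.09). The libraries of neighbours in this order overlapped for Fn1 and Thbs2, Thbs2 and Timp2, Lox and Serpinh1, and Serpinf1 and Fbn1, and did not for the other pairs. In KO the order was another, led by Thbs1 and Fn1. After each library was rescaled to the same mean coverage over all genes, the mean of 8 of the 10 genes stayed lower in KO. The KO mean turned higher in Fn1 (43.0% and 48.6% for WT and KO) and Thbs1 (45.0% and 72.5%), as in 19.9% of the genes tested. These are orders of means, and single libraries can overlap. In Serpinh1 (29.6% and 23.9%) and Serpinf1 (23.7% and 17.3%) 1 KO library was at 0%, so the KO mean rests on the other. This scaling moved the median difference of all tested genes from -47.7 to -16.7 percentage points.

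The control decided whether 5 of the 10 genes had any WT coverage. Both WT lists against IgG used the same WT IgG library, so a 0% in both is not 2 independent observations. Fn1, Thbs1, Lox, Serpinh1 and Serpinf1 had 40.5% to 80.3% in the WT libraries against Input and 0% against IgG. Among the 7332 protein-coding genes with at least 35% in both WT libraries against Input, a limit set after these values had been seen so that all 10 genes pass, 103 had 0% in both against IgG (1.4%). Coverage against IgG was 88.0% of that against Input in the median gene of these 7332, and 78.7%, 78.2%, 64.6%, 43.9% and 16.3% in Fbn1, P4hb, Timp2, Bmp1 and Thbs2. The 103 genes were short, with a median length of 3.77 kb beside 21.1 kb for the 7332. Fn1, at 67.8 kb, was the longest of them, and Flna, which encodes filamin, was next at 26.4 kb. In the other matrix genes named below, 39 passed the same limit, and 0 of 39 had 0% against IgG in both WT libraries. The lowest was Ecm1 with 9.98% of its coverage against Input. A single library could lack such a gene: Ecm1 and Hspa5 had 0% against IgG in WT replicate 1, beside 16.9% and 33.6% in replicate 2. These lists hold no collagen chain genes, of which Col1a1 had 0% against IgG in both WT libraries. Pcolce, Timp1 and Ccn2 missed the limit in at least 1 WT library and had 0% in both against IgG. Of all 100 other matrix genes, 12 had 0% in WT against IgG, beside 8 against Input. Most positions of the IgG lists recur in the longer Input lists: 94.4% and 96.6% of the WT peaks against IgG, and 99.2% and 97.5% of the KO peaks, had the same start and end as a peak against Input. Counted from the Input lists the match was lower, at 191068 of 242745 and 198221 of 246258 peaks in WT. In KO it was 80736 of 122589 and 101466 of 159459.

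**Figure D4:**
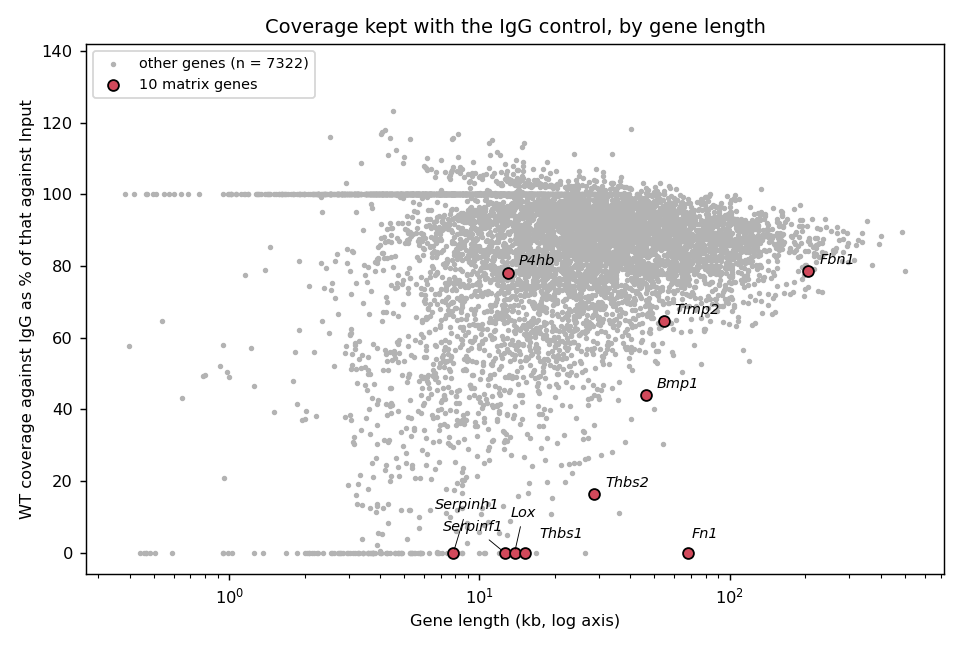
WT coverage against IgG as a percent of that against Input (mean of both libraries) against gene length in kb on a log axis, for 7332 protein-coding genes of at least 35% against Input in both WT libraries. The 10 matrix genes are red and labelled, 5 of them lie at 0%, and Fn1 is the longest gene at that level.

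Over the 10 genes the WT libraries had 226 and 213 peaks against Input and 105 and 101 against IgG, and the KO libraries had 23 and 38 against Input and 10 and 13 against IgG. With no WT peak against IgG, Fn1, Lox, Serpinh1 and Serpinf1 were higher in KO than in WT there, by 1.73, 1.88, 1.35 and 3.25 points, each from 1 to 4 KO peaks of under 1 kb. In Lox, Serpinh1 and Serpinf1 one of the KO libraries was at 0% as well, so there the genotypes overlapped. The WT and KO lists used different IgG libraries, so a difference between genotypes and one between IgG libraries cannot be told apart. Both KO libraries lay below both WT libraries against IgG in Thbs2, P4hb, Bmp1, Timp2 and Fbn1, 5 of the 10 genes. The other 5 had no WT peak there, so KO could not lie below WT. Only 4 of the 10 genes, P4hb, Bmp1, Timp2 and Fbn1, passed the coverage filter with that control. All 4 had this order, beside 95.7% of the 9635 genes tested with it.

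Coverage of the other genes of matrix assembly was tested with limma over all 10809 genes, of which 92.6% fell and 0.555% rose at an adjusted p under 0.05. Of 100 further matrix genes, 69 passed the coverage filter, 65 of these 69 fell (94.2%) and none rose. The median difference was -41.5 points, beside -47.7 for all genes tested. Mean coverage over all protein-coding genes was 25.9% in WT and 3.32% in KO. Genes thus passed the filter mostly through their WT values, which favours falls. Without the filter 66 of 98 matrix genes fell and 1 rose, beside 10701 falls and 492 rises among 18288 genes. Against IgG 47 of the 51 tested fell and none rose, beside 91.4% and 0.218% of all genes tested. All 18 tested genes of collagen folding and modification fell, of 20 listed. The chaperone gene Hspa5 fell from 79.0% ± 2.07 to 0% (limma adjusted p 0.000211), and P4ha3, an alpha subunit that pairs with P4hb, from 29.7% ± 1.79 to 3.47% ± 2.52 (limma adjusted p 0.00127). All 3 tested procollagen proteinase and enhancer genes fell, of 9 listed, and all 5 cross-linking enzyme genes. Tgm2, a transglutaminase, fell from 75.7% ± 4.07 to 4.17% ± 1.94, Loxl2, a relative of Lox, by 23.9 points, Adamts14, a procollagen N-proteinase, by 22.7 points and Pcolce, which enhances Bmp1, by 45.4 points. The WT libraries of Pcolce were far apart, at 68.1% and 31.4%, and it had 0% in WT against IgG.

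Matrix glycoproteins other than the 4 above gave 20 tested genes of 34, of which 18 fell. Ecm1 fell by 71.0 points, from 84.8% ± 0.333 to 13.8% ± 1.99. The exceptions were the short genes Ccn1, with 21.3% and 63.0% in WT beside 23.6% and 0% in KO (limma adjusted p 0.185), and Ccn2, with 0% and 36.8% in WT beside 0% and 17.7% in KO (limma adjusted p 0.577). Of 18 proteases and inhibitors 14 were tested and 12 fell, Mmp19 by 72.8 points. Timp1 had 26.9% and 14.7% in WT beside 0% and 7.85% in KO (limma adjusted p 0.0531), and Mmp13 had 33.2% and 16.1% in WT beside 5.12% and 7.09% in KO (limma adjusted p 0.0613). All 9 tested proteoglycan genes fell, of 14 listed, from 55.8 points in Hspg2, which encodes perlecan, to 19.6 points in Sdc2. With peaks of a score of at least 50 alone 37 of 40 tested matrix genes fell, beside 7464 of 7883 genes in all. After scaling, 27 of the 69 genes were lower and none higher, beside 45.2% lower and 2.41% higher among all genes tested. The median difference was then -23.8 points for collagen folding and modification, -21.3 for cross-linking enzymes, -21.3 for proteases and inhibitors, -11.6 for proteoglycans, -3.75 for procollagen proteinases and -2.44 for glycoproteins, beside -16.7 for all genes tested.

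**Figure D5:**
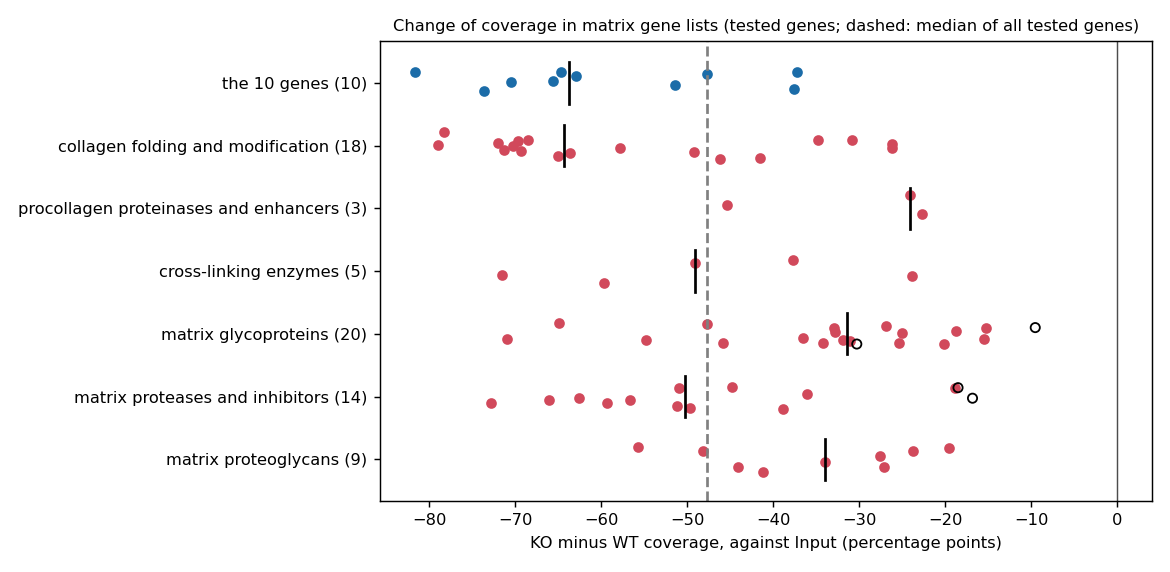
KO minus WT coverage against Input in percentage points for the tested genes of 6 matrix lists and the 10 genes (blue, not tested here), with the number of genes in brackets. Red points fell at a limma adjusted p under 0.05, open circles did not pass, short lines are list medians, and the dashed line is the median of all tested genes at -47.7 points.

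The nearest protein-coding gene on either side of each of the 10 genes, 20 neighbours in all, had no part in how the genes were chosen. Of the 11 neighbours that passed the coverage filter 10 fell, beside 92.6% of all genes tested. Without the filter 12 of 18 fell and 0 rose, beside 10701 falls among 18288 genes in all. The count was 6 of 8 with peaks of a score of at least 50, beside 7464 of 7883 genes in all, and 4 of 11 after scaling, beside 45.2%. The smallest of these 10 fell by 12.2 points and the largest dropped by 86.6 points. Rasgrp1, 768998 bp from Thbs1, had 14.8% and 11.3% in WT, beside 4.53% and 11.8% in KO (limma adjusted p 0.267). The other 9 neighbours had a mean below the filter, and 2 of them, Sftpc and Zfp474, were at 0% in all 8 lists. Among the rest, the KO mean against Input was above the WT mean in Fsip1, Wdr27 and Phyhip. It was below the WT mean in Mreg, Smoc2, Ppp1r27 and Smyd4. Only in Wdr27 did both KO libraries (3.77% and 5.02%) lie above both WT libraries (2.75% and 3.39%). Cep295nl, within Timp2, fell from 69.8% ± 2.67 to 0%. Little coverage reached past the start in 5 of the 6 genes of known strand: in the 10 kb before the start the WT libraries had 0% against Input for Thbs2, Timp2 and Serpinh1, 3.30% and 6.36% for Serpinf1, 0% and 5.96% for Fbn1, and 40.3% and 41.8% for P4hb, which has Arhgdia 4845 bp away on that side. Arhgdia, named because of its values, had 70.8% and 65.3% in WT against Input and 0% and 51.1% against IgG, so there too a WT library lacked a gene against IgG that both had against Input.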

How the data were processed

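H3K36me3 ChIP-seq was made from stromal cells fixed in 1% formaldehyde for 10 min, per the labels' protocols, with 2 libraries per genotype. The submitters' processing notes name Bowtie2 as a tool and GRCm38 as the build. The authors deposited 8 peak lists, each from a single library against the Input or IgG library of its genotype, so both replicates share a control. Each peak has a score, the authors' own value of unstated scale, used only to rank and filter peaks within a list. How peaks were called (caller version, settings) is not given in the sources used here. Depth can alter how many peaks are called and how wide, and it is unknown.

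Coverage was computed over RefSeq spans (GRCm38.p6) on chromosomes 1 to 19, X and Y. Genes with a mean of at least 10% were tested with limma 3.58.1 (trend and robust, statmod 1.5.0) in R 4.3.3, Benjamini-Hochberg adjusted, threshold 0.05. On simulated data for the comparison against Input (11644 genes), 100 of 100 genes changed by 50 points, 81 of 100 changed by 30 points and 13 of 11444 unchanged genes were called. The changed genes were drawn from those of high WT coverage, and simulated KO values had the spread of WT. In the data 92.6% of the genes tested fell and KO coverage was low, so these rates may not hold there. Tables and figures used Python 3.11.15 with pandas 2.3.3, numpy 2.4.6 and matplotlib 3.10.9. Promoters came from the RefSeq table of GRCm38.p6, which matched 6 of the 10 genes and also gave their strand. The 10 genes and all lists were chosen with earlier results of these data known. Named besides the 10 genes were, per matrix list, the tested genes of largest and smallest fall, those not called, neighbours that overlap or were not called, and genes said to be named for their values. The alternatives were other filters, scores, merging, scaling, the control and leaving out libraries.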

Additional observations from a re-analysis of the deposited data

How the results depend on the processing

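Against Input, 10013 genes fell. Without the coverage filter 10701 of 18288 fell and 492 rose. Among the matrix genes 66 of 98 then fell and 1 rose, and among the neighbours 12 of 18 fell. A coverage filter of 25% left 5883, with fewer genes tested, and scaling left 4890. Against IgG, 8806 fell, beside 4264 with scores of at least 50, 4049 with the 25% filter and 3772 after scaling. Of the matrix genes 65 fell, beside 37 of 40 tested with scores of at least 50, 31 with the 25% filter and 27 after scaling, and of the neighbours 10, beside 6 of 8 tested with that score and 4 of 11 after scaling. The difference between the median coverages of the 10 genes in WT and KO was -66.8 points, and it was -4.60 against IgG, -55.3 with scores of at least 50, -78.2 with peaks within 1 kb merged and -28.9 after scaling. The KO mean became higher than the WT mean in Fn1 (1.73), Lox (1.88), Serpinh1 (1.35) and Serpinf1 (3.25) against IgG, and in Fn1 (5.64) and Thbs1 (27.5) after scaling. The 25% filter and the score limit left fewer genes to test, and otherwise the cause was not tested. Leaving out each library in turn gave 8575 to 9311 falls against Input, 7455 to 8086 against IgG, 50 to 61 among matrix genes, 8 to 11 among neighbours and a median difference of -68.0 to -65.5. The labels link same-numbered libraries of WT and KO by number alone, and whether they share a culture or batch is not stated. The correlation of their deviations across genes was -0.00333, and a replicate block gave 9993, 8892, 65 and 10 falls. The labels give no read depth, so how depth limits these values is unknown.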

Other observations

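Among the genes of at least 10 kb with 35% or more in both WT libraries against Input, 10 of 5606 (0.178%) had no WT coverage against IgG: Acta2, Col1a1, Ctsd, E2f1, Flna, Fn1, Lox, Serpinf1, Thbs1 and Tubb3. Of these, 4 belong to the genes described above, which were chosen partly for that absence, and the length limit was set after the values had been seen. Col1a1, the main collagen gene of bone, had 73.3% and 64.3% against Input in WT and 3.45% and 0% in the KO libraries. The marker genes Vim and Lyz2 gave the same picture: Vim, which encodes vimentin, had 82.2% and 92.2% against Input, and Lyz2, a myeloid lysozyme, 74.9% and 87.6%, both with 0% against IgG in WT. Other collagen genes differed in WT. Col1a2 had 2.59% and 8.63% against IgG, beside 53.04% and 48.98% against Input. Col3a1 kept 31.4% and 23.4% against IgG of its 35.4% and 23.4% against Input.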
